A study of Arabidopsis thaliana with 12 samples.

Results

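The core circadian clock of Arabidopsis thaliana is represented here by 6 genes: CCA1 (AT2G46830), LHY (AT1G01060), PRR7 (AT5G02810), PRR5 (AT5G24470), TOC1 (AT5G61380) and GI (AT1G22770). The rule that names them uses no measured value, though they were picked for study with earlier results of these data known. GI was found through the platform's gene table, and the other 5 genes were taken by the identifiers of their ATH1 probe sets, since that table leaves these probe sets unnamed. With the array's name put before each identifier, these are ATH1.266719_at for CCA1, ATH1.261569_at for LHY, ATH1.250971_at for PRR7, ATH1.249741_at for PRR5 and ATH1.247525_at for TOC1. Each gene was read by 1 probe set, so the 6 genes are 6 of 22746 probe sets tested. CCA1, LHY and TOC1 lie on chromosomes 2, 1 and 5, PRR7 and PRR5 on chromosome 5, and GI on chromosome 1 in the RefSeq gene table.

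The plant clock is a loop of transcription factors that repress each other in turn through the day. CCA1 and LHY are related MYB factors whose transcripts peak around dawn and which repress evening genes. The pseudo-response regulators PRR7, PRR5 and TOC1 follow from the day into the evening and repress CCA1 and LHY, while GI, an evening protein, stabilises the F-box protein ZTL, which marks TOC1 for breakdown. Cold is known to change the level and the cycling of these transcripts in leaves.

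Gene expression was measured on 12 Affymetrix ATH1 arrays of leaf RNA, 2 arrays in each of 6 groups: the rdm4 mutant and the wild type (WT), each after 0, 3 and 48 h at 4 °C. RDM4 is a protein that associates with RNA polymerase II and acts in RNA-directed DNA methylation. Plants were 2 weeks old, grew on plates in 16 h days at 23 °C and nights at 18 °C, and each RNA came from pooled leaves of 30 or more seedlings. The mutant allele is not named in the labels, and all groups share this growth regime. Groups were taken from the titles, and other labels disagree with them. The wild type is C24 in the titles and Col elsewhere, the genotype field of the mutant arrays reads 35S::RDM4, and the descriptions given with the replicate 2 arrays state treatments that their titles do not. Replicates came from different growth chambers.

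Values are log2 signals as deposited, with array medians from 6.33 to 6.43, and replicate arrays correlated across probe sets at r from 0.997 to 0.999. The gap between replicate arrays had a median of 0.04 over the 36 pairs of a clock gene and a group, against 0.08 over all probe sets, and the widest was 0.32, for LHY in WT at 0 h. The leaf genes named on the arrays, RCA, LHCB4.1 and LHCB4.2, were at or above 94.7% or more of the probe sets in every group. The 3 named root genes were PYK10, AT5G17820 and EXPA7. PYK10 was bright, at or above 95.2% to 99.3% of the probe sets over the groups. AT5G17820 was at or above 31.3% to 72.9% and EXPA7, which was dim, 22.7% to 33.2%. The sum of the 3 was close to PYK10 alone, which averaged 11.92 in rdm4 at 0 h and 12.50 in WT at 3 h. The summed log2 signal of the 3 genes was 11.96 to 11.98 in rdm4 and 10.64 to 10.66 in WT at 0 h. At 3 h it was 11.85 to 11.95 in rdm4 and 12.57 on both WT arrays. At 48 h it was 11.62 to 11.68 in rdm4 and 11.69 on both WT arrays. The sum therefore stood above WT in rdm4 at 0 h and below it at 3 h. At 48 h the sums were close, and the 3 genes did not differ alike between rdm4 and WT. PYK10 was at -0.05 ± 0.06 (log2 difference ± SE of the fit, limma adjusted p = 0.634). EXPA7 was at 0.25 ± 0.08 (adjusted p = 0.0269) and AT5G17820 at 0.10 ± 0.08 (adjusted p = 0.338). Over all probe sets the difference of rdm4 from WT at 0 h and that at 3 h, which come from different arrays, correlated at r = -0.61, and the 3 h difference with that at 48 h at -0.36, against 0.22 for 0 h with 48 h. The 3 h difference thus ran against those at both other times, and whether the 3 h arrays carry each other's genotype label was not tested. For the 6 clock genes, the genotype differences at 3 h and the differences of the 3 h responses are therefore also given with these labels exchanged. This alternative was chosen after seeing the data. The RDM4 transcript was not analysed here, so the genotype labels have no check of their own, and the 3 h arrays in particular are referred to by their labels. Averages over both genotypes at 3 h do not depend on which 3 h arrays carry which label. The 3 h change cannot be told apart from one of the time of day, because unchilled plants were sampled at 0 h only, and the clock time of sampling is not given in the labels. At 48 h, a whole number of days, age and chilling cannot be told apart, nor can the time of day if sampling hours differed.

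After 48 h of chilling, the dawn genes CCA1 and LHY showed the largest rises of the 6 genes and were among the strongest risers on the arrays. At 3 h CCA1 had risen most and PRR5 next, ahead of LHY, in the average of both genotypes. Averaged over both genotypes, CCA1 was 5.15 ± 0.05 (log2 change ± SE of the fit) above its 0 h level at 48 h, rank 5 of 22746 probe sets from the top, and LHY 4.32 ± 0.07 above it, rank 11. PRR5 had its highest level at 3 h in both genotypes, and GI rose by 0.98 ± 0.05 by 48 h. TOC1, the evening repressor of CCA1 and LHY, fell by 0.64 ± 0.05 at 48 h. By the labels, CCA1, PRR7, TOC1 and GI were lower in rdm4 than WT without chilling and higher at 3 h. With the 3 h labels exchanged their 3 h differences would be -0.61, -0.87, -1.27 and -0.95, by construction the same sign as at 0 h. PRR5 goes the other way. It was at 0.64 at 0 h and 0.52 at 3 h by the labels, and would be at -0.52 at 3 h with them exchanged. LHY was not called at 0 h (0.01), so its sign there cannot be compared.

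**Figure D1:**
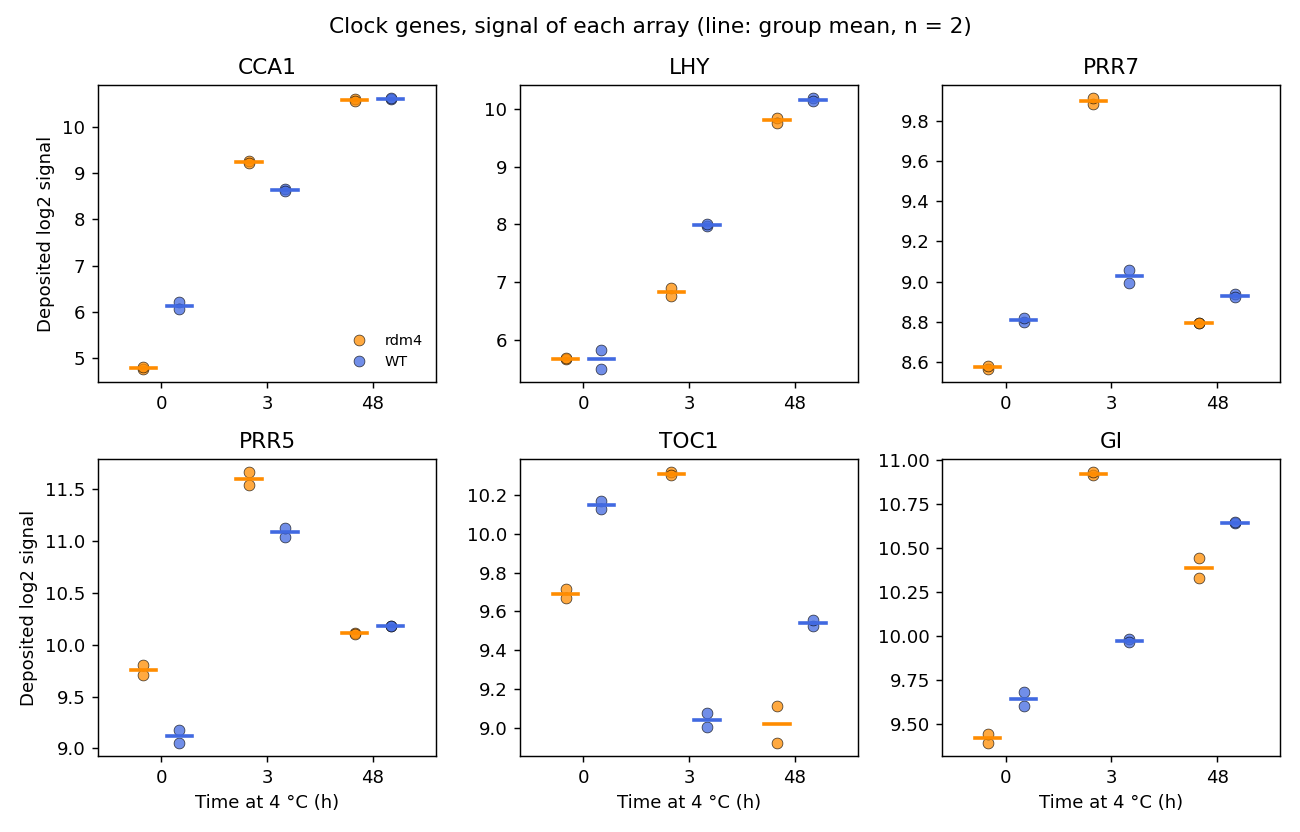
Deposited log2 signal (y axis, a separate scale in each panel) of the 6 clock genes against time at 4 °C in hours, with rdm4 to the left of WT at each time; each point is an array and each line the mean of 2 arrays. CCA1 and LHY reached their highest levels at 48 h in both genotypes, while PRR5 and PRR7 were highest in the rdm4 arrays of 3 h.

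CCA1 was the member with the widest range, 5.83 on the log2 scale between its lowest and highest group. At 0 h its log2 signal was 4.77 and 4.80 in the rdm4 arrays, against 6.21 and 6.05 in the WT arrays. At 3 h it was 9.26 and 9.23 in rdm4, against 8.66 and 8.61 in WT. At 48 h it was 10.62 and 10.57 in rdm4, against 10.61 and 10.62 in WT. The groups overlapped at 48 h and at no other time, and within each genotype every later array lay above every earlier one. Overlap is given here and below as description only. With 2 arrays a group, differences that were not called can also lack overlap, such as that of PRR7 at 48 h (adjusted p = 0.112). The share of all probe sets without overlap was not computed. In these bulk leaf samples fewer cells with a transcript and less transcript per cell cannot be told apart. From the top, the order of the levels was WT and rdm4 at 48 h, rdm4 and WT at 3 h, WT at 0 h and rdm4 at 0 h. The first 2 of these were not called different (0.02 ± 0.07, limma adjusted p = 0.833), and all other neighbours were. The rdm4 level at 0 h was at or above 31.1% of the probe sets and the WT level at or above 47.1%. No background measure is given, so the sizes of changes from these levels are uncertain.

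Chilled for 48 h, CCA1 was 5.81 ± 0.07 (log2, SE of the fit, 2 arrays a group) above its 0 h level in rdm4, or 56.1-fold, and 4.49 ± 0.07 above it in WT, or 22.4-fold. At 3 h the rise was already 4.46 ± 0.07 in rdm4 (adjusted p = 1.10e-12) and 2.50 ± 0.07 in WT (adjusted p = 5.98e-11). Set against WT, CCA1 in rdm4 was lower at 0 h, by -1.35 ± 0.07 (adjusted p = 5.65e-08), and higher at 3 h, by 0.61 ± 0.07 (adjusted p = 2.47e-05). Its rise was larger in rdm4 than in WT at both times, by 1.95 ± 0.10 at 3 h (adjusted p = 1.90e-08) and 1.32 ± 0.10 at 48 h (adjusted p = 1.01e-06). With the 3 h labels exchanged the 3 h rises would be 3.85 in rdm4 and 3.11 in WT, a difference of 0.74.

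LHY, the closest relative of CCA1, started from like levels in both genotypes. At 0 h it was at 5.66 and 5.68 in rdm4, against 5.82 and 5.50 in WT. After 3 h the rdm4 arrays read 6.90 and 6.76, against 7.98 and 8.01 in the WT arrays. By 48 h the rdm4 arrays stood at 9.85 and 9.77, against 10.19 and 10.15 in WT. The genotypes overlapped at 0 h only, and at 3 h LHY was lower in rdm4 where CCA1 was higher. The order from the top was WT and rdm4 at 48 h, WT and rdm4 at 3 h, then rdm4 and WT at 0 h. Only the last pair was not called different (0.01 ± 0.09, adjusted p = 0.943), with levels at or above 41.6% and 42.1% of the probe sets.

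After 48 h LHY had risen by 4.14 ± 0.09 in rdm4 and 4.51 ± 0.09 in WT, which is 17.6-fold and 22.8-fold. At 3 h the rises were 1.16 ± 0.09 (adjusted p = 7.82e-07) in rdm4 and 2.34 ± 0.09 (adjusted p = 1.20e-09) in WT. The 3 h response was smaller in rdm4 by -1.17 ± 0.13 (adjusted p = 1.62e-05), the opposite sign to that of CCA1. With the 3 h labels exchanged it would be 1.15 for LHY and 0.74 for CCA1, both larger in rdm4. The rdm4 level was below WT by -1.16 ± 0.09 at 3 h (adjusted p = 1.61e-06) and by -0.36 ± 0.09 at 48 h (adjusted p = 0.0103). Leaving out WT 48 h replicate 1 ended the 48 h call (adjusted p = 0.0614), as did leaving out rdm4 48 h replicate 2 (adjusted p = 0.0698). The difference of the 48 h responses, -0.37 ± 0.13, was not called (adjusted p = 0.0690), but was called with trend and robust estimation (adjusted p = 0.0282) and without WT 0 h replicate 1 (-0.53, adjusted p = 0.00687), over a range of 0.00687 to 0.239.

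PRR7, a daytime repressor of CCA1 and LHY, was raised most in the arrays labelled rdm4 at 3 h. The rdm4 arrays read 8.57 and 8.58 at 0 h, 9.88 and 9.91 at 3 h, and 8.80 and 8.80 at 48 h. The WT arrays read 8.80 and 8.82, 8.99 and 9.06, and 8.94 and 8.92 at these times. The genotypes overlapped at none of the 3 times, and the 3 h rdm4 arrays lay above all 10 others. PRR7 rose at 3 h by 1.32 ± 0.06 in rdm4 (adjusted p = 4.52e-09) and by 0.22 ± 0.06 in WT (adjusted p = 0.0106), a difference of 1.11 ± 0.09 (adjusted p = 6.89e-07). With the 3 h labels exchanged the rises would be 0.45 in rdm4 and 1.09 in WT. The WT rise lost its call when replicate 1 of WT 0 h was left out (0.20, adjusted p = 0.0536) and when replicate 2 of WT 3 h was (0.19, adjusted p = 0.0753). Below the 3 h rdm4 level, WT at 3 h, 48 h and 0 h and rdm4 at 48 h followed in this order. No neighbours among these 4 were called different (adjusted p from 0.124 to 0.875), though their arrays did not overlap. At 48 h PRR7 was 0.22 ± 0.06 above 0 h in rdm4 (adjusted p = 0.00822) and 0.12 ± 0.06 above it in WT (adjusted p = 0.124).

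PRR5, which follows PRR7 in the daily sequence, was highest at 3 h and stayed above its 0 h level at 48 h in both genotypes. At 0 h the rdm4 arrays read 9.71 and 9.81, against 9.18 and 9.06 in WT. At 3 h they read 11.54 and 11.66, against 11.04 and 11.13 in WT, and at 48 h 10.12 and 10.11, against 10.18 and 10.18 in WT. The genotypes overlapped at none of the 3 times, with rdm4 well above WT at 0 h and 3 h and just below it at 48 h. The 3 h rise was 1.84 ± 0.07 in rdm4 and 1.96 ± 0.07 in WT (adjusted p = 1.42e-09 and 6.35e-10), and the responses differed by -0.12 ± 0.10 (adjusted p = 0.390). With the 3 h labels exchanged the rises would be 1.32 in rdm4 and 2.48 in WT, and their difference of -1.16 ± 0.10 was called (adjusted p = 1.78e-05). Its 48 h rise was 0.35 ± 0.07 in rdm4 and 1.06 ± 0.07 in WT, a difference of -0.71 ± 0.10 (adjusted p = 3.58e-04). In the order of levels both 3 h groups came first, then WT and rdm4 at 48 h, then rdm4 and WT at 0 h. The 48 h groups were not called different (0.07 ± 0.07, adjusted p = 0.544), though their arrays did not overlap.

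TOC1 moved in opposite directions at 3 h in the arrays labelled rdm4 and WT, and fell in both genotypes by 48 h. Its log2 signal in rdm4 was 9.71 and 9.67 at 0 h, 10.32 and 10.30 at 3 h, and 9.11 and 8.92 at 48 h. In WT it was 10.17 and 10.13, 9.08 and 9.00, and 9.52 and 9.55 at these times. TOC1 was thus lower in every rdm4 array than in either WT array at 0 h and 48 h, and higher in every rdm4 array at 3 h. At 3 h it rose by 0.62 ± 0.07 in rdm4 (adjusted p = 2.29e-05) and fell by 1.11 ± 0.07 in WT (adjusted p = 9.14e-08), and the responses differed by 1.73 ± 0.10 (adjusted p = 8.33e-08). With the 3 h labels exchanged TOC1 would change by -0.65 ± 0.07 in rdm4 and 0.16 ± 0.07 in WT, where it was not called (adjusted p = 0.115). By 48 h it had fallen by 0.67 ± 0.07 in rdm4 and by 0.61 ± 0.07 in WT, and the difference of these responses, -0.07 ± 0.10, was not called (adjusted p = 0.727). The levels ran from rdm4 at 3 h and WT at 0 h, through rdm4 at 0 h and WT at 48 h, to WT at 3 h and rdm4 at 48 h. Within each of these 3 pairs the groups were not called different (adjusted p = 0.115, 0.109 and 0.836), and between the pairs neighbours were.

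GI rose in both genotypes at both times, and each of its 6 group levels was called different from its neighbours in the order. The calls between the genotypes at 0 h and at 48 h did not hold over all left-out arrays, as given below. The rdm4 arrays read 9.40 and 9.44 at 0 h, 10.91 and 10.93 at 3 h, and 10.44 and 10.33 at 48 h. The WT arrays read 9.68 and 9.61, 9.98 and 9.96, and 10.64 and 10.65 at these times. By the labels the level was highest at 3 h in rdm4 and at 48 h in WT. The 3 h rise was 1.50 ± 0.07 in rdm4 (adjusted p = 2.95e-09) and 0.33 ± 0.07 in WT (adjusted p = 0.00112), a difference of 1.17 ± 0.09 (adjusted p = 8.27e-07). With the 3 h labels exchanged the rises would be 0.55 in rdm4 and 1.28 in WT. At 48 h the rises were 0.97 ± 0.07 in rdm4 and 1.00 ± 0.07 in WT, a difference of -0.03 ± 0.09 (adjusted p = 0.850). From the top, the order was rdm4 at 3 h, WT and rdm4 at 48 h, WT at 3 h, WT at 0 h and rdm4 at 0 h, with adjusted p between neighbours from 2.04e-04 to 0.0220.

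Without chilling, CCA1, TOC1, PRR7 and GI were lower in rdm4 than in WT and PRR5 was higher, while LHY was not called. Thus 5 of the 6 genes were called at 0 h, against 29.8% of all probe sets. The 1 called higher and the 4 called lower stand beside 16.1% and 13.7% of all probe sets. The differences were -1.35 ± 0.07 for CCA1, -0.46 ± 0.07 for TOC1, -0.23 ± 0.06 for PRR7, -0.22 ± 0.07 for GI, 0.64 ± 0.07 for PRR5 and 0.01 ± 0.09 for LHY. A difference as far from 0 as that of CCA1 was found for 0.91% of all probe sets. The GI call (adjusted p = 0.0220) did not survive leaving out replicate 1 of WT at 0 h (-0.19, adjusted p = 0.131), replicate 1 of rdm4 at 0 h (-0.20, adjusted p = 0.102) or every array of the later times (adjusted p = 0.0813). The PRR7 call (adjusted p = 0.0112) did not survive leaving out replicate 2 of WT at 0 h (-0.22, adjusted p = 0.0611) or every array of the later times (adjusted p = 0.0619).

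At 3 h all 6 genes differed between the arrays labelled rdm4 and WT, against 36.7% of all probe sets. The 5 called higher in rdm4 stand beside 17.6% and the 1 called lower, LHY, beside 19.1%. TOC1 was higher by 1.27 ± 0.07 (adjusted p = 1.23e-07), a size reached by 1.18% of all probe sets in either direction, and GI by 0.95 ± 0.07 and PRR7 by 0.87 ± 0.06. CCA1 and PRR5 were higher by 0.61 ± 0.07 and 0.52 ± 0.07. The median difference of the 6 genes was 0.74, against 0.02 over all probe sets. After 48 h 3 of 6 were called, against 35.0% of all probe sets, all 3 lower in rdm4 (19.0% of all were called lower and 16.0% higher). These were TOC1 at -0.52 ± 0.07 (adjusted p = 1.38e-04), LHY at -0.36 ± 0.09 and GI at -0.26 ± 0.07 (adjusted p = 0.00868). The count of 3 fell to 1, TOC1, without rdm4 48 h replicate 2, and GI was not called there (-0.20, adjusted p = 0.0777) nor without WT 48 h replicate 2 (adjusted p = 0.0510). CCA1, PRR5 and PRR7 were at -0.02 ± 0.07, -0.07 ± 0.07 and -0.13 ± 0.06 and were not called (adjusted p = 0.833, 0.544 and 0.112). Beside these differences, the 3 named root genes had the summed signals given above. Probe sets for the 3′ and 5′ ends of GAPDH, actin and ubiquitin give a measure of RNA integrity. The 3′ end of GAPDH was brighter than the 5′ end on the log2 scale by 0.72 in rdm4 and 0.92 in WT at 0 h. At 3 h this was 0.79 in rdm4 and 0.67 in WT, and at 48 h 0.57 in rdm4 and 0.54 in WT. For actin it was 0.41 in rdm4 and 0.47 in WT at 0 h, 0.51 and 0.57 at 3 h, and 0.61 and 0.61 at 48 h. For ubiquitin it was 1.05 in rdm4 and 1.06 in WT at 0 h, 1.00 and 1.03 at 3 h, and 1.05 and 1.03 at 48 h. The measure thus did not change alike for these genes. The part of the root genes and of RNA integrity in the differences of the clock genes was not tested.

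**Figure D2:**
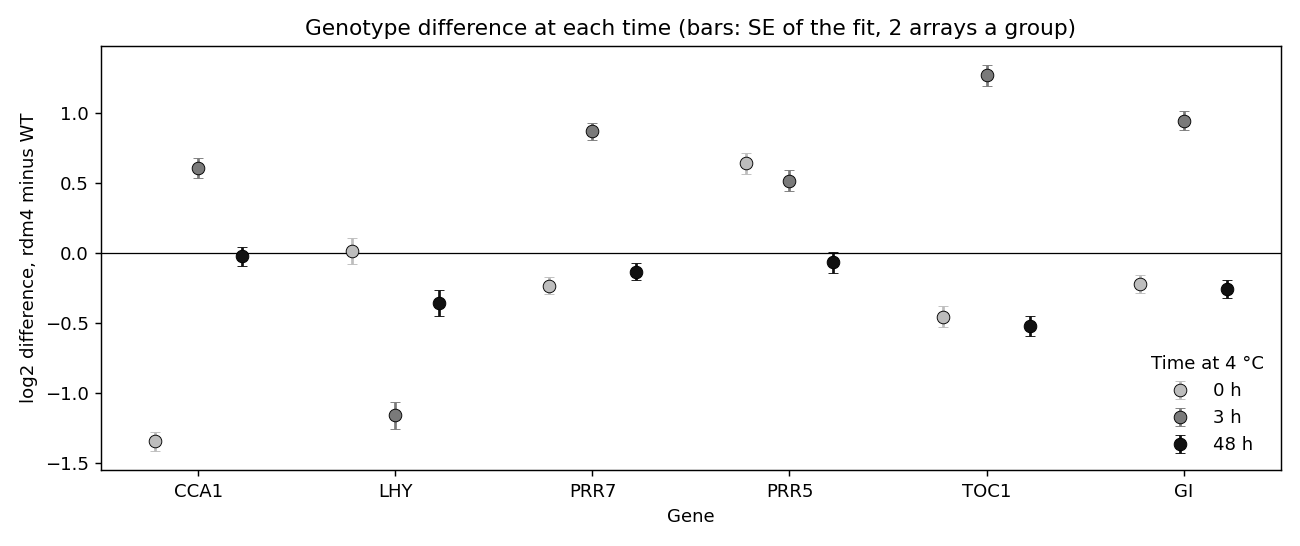
Difference in log2 signal between rdm4 and WT (y axis, rdm4 minus WT) for each clock gene at 0, 3 and 48 h at 4 °C, with bars for the SE of the fit over 2 arrays a group. TOC1 lay at -0.46, 1.27 and -0.52 at the 3 times, and CCA1 at -1.35, 0.61 and -0.02.

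After 3 h of chilling all 6 genes differed from 0 h when both genotypes were averaged, a value that does not rest on the genotype labels of the 3 h arrays. Of all probe sets 42.5% were called in this comparison. CCA1 rose by 3.48 ± 0.05, PRR5 by 1.90 ± 0.05, LHY by 1.75 ± 0.07, GI by 0.92 ± 0.05 and PRR7 by 0.77 ± 0.04, and TOC1 fell by 0.24 ± 0.05 (adjusted p = 0.00196). By the labels of the 3 h arrays, the mean for TOC1 joins a rise in rdm4 and a fall in WT. With these labels exchanged TOC1 would change by -0.65 in rdm4 and 0.16 in WT, where it was not called (adjusted p = 0.115). The 5 called higher stand beside 19.0% of all probe sets and the 1 called lower beside 23.5%. At least 2-fold changes were called for 3 of the 6 genes, CCA1, PRR5 and LHY, against 3.85% of all probe sets. CCA1 ranked 11 among all probe sets from the top, PRR5 111 and LHY 147. Within the genotypes as labelled, all 6 genes were called in rdm4, against 40.0% of all probe sets, and all 6 in WT, against 46.8%. The median change of the 6 genes, by the same labels, was 1.41 in rdm4 and 1.15 in WT, against -0.02 and -0.04 over all probe sets.

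The 3 h responses of rdm4 and WT were called different for 5 of the 6 genes, against 43.2% of all probe sets. The rdm4 response was larger for CCA1, GI and PRR7, ran opposite to WT for TOC1 and was smaller for LHY. These differences rest on the labels of the 3 h arrays. With the labels exchanged all 6 genes were called, with CCA1 and LHY larger in rdm4 and PRR7, PRR5, TOC1 and GI larger in WT or falling in rdm4. Over all probe sets 2616 in place of 9826 were then called. This lower count restates the correlation of -0.61 between the 0 h and 3 h genotype differences and is not a separate result. Over the same arrays and by the same labels, the root genes PYK10, AT5G17820 and EXPA7 rose in WT by 1.89 ± 0.06, 3.28 ± 0.08 and 0.65 ± 0.08 at 3 h. In rdm4 their changes were -0.07 ± 0.06, -0.04 ± 0.08 and -0.05 ± 0.08 and were not called. The part of the root genes in the result was not tested.

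All 6 genes were called at 48 h when both genotypes were averaged, against 57.7% of all probe sets. Of these, 5 were higher (27.4% of all probe sets) and TOC1 was lower (30.3%). The changes in order were 5.15 ± 0.05 for CCA1, 4.32 ± 0.07 for LHY, 0.98 ± 0.05 for GI, 0.71 ± 0.05 for PRR5, 0.17 ± 0.04 for PRR7 and -0.64 ± 0.05 for TOC1 (adjusted p from 3.13e-15 to 0.00393). Only CCA1 and LHY were called at 2-fold or more, against 10.5% of all probe sets. The sizes reached by GI and PRR7 were also reached by 10.9% and 55.8% of all probe sets, so that the PRR7 change was of a common size on these arrays. In rdm4 all 6 genes were called, against 50.5% of all probe sets, and in WT 5 were, all but PRR7, against 50.4%. The 48 h responses differed between the genotypes for CCA1, larger in rdm4, and PRR5, larger in WT, which is 2 of 6, against 22.2% of all probe sets. None of the 48 h comparisons uses the 3 h arrays in its difference, and when those arrays were left out of the fit as well, all 36 values of the 6 genes in comparisons of 0 h and 48 h kept their direction and their side of the threshold.

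**Figure D3:**
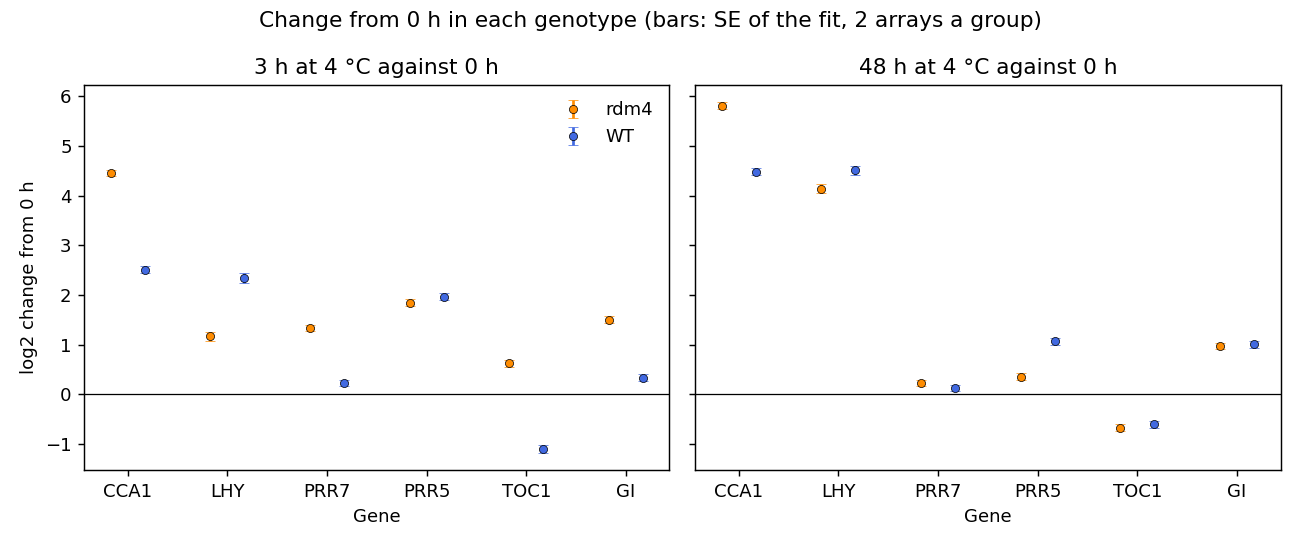
Change in log2 signal from 0 h (y axis) after 3 h (left) and 48 h (right) at 4 °C for each clock gene in rdm4 and WT, with bars for the SE of the fit over 2 arrays a group, most of them hidden by the points. At 3 h, by the array labels, TOC1 was above 0 in rdm4 and below 0 in WT. At 48 h CCA1 and LHY had changes of 4.14 to 5.81 while the other 4 genes had changes of -0.67 to 1.06.

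The dawn genes stood higher at 48 h than at 3 h in the average of both genotypes, and the day genes PRR5 and PRR7 lower. No time between these was sampled, and chilling and time of day cannot be told apart in this comparison. In the mean of both genotypes 5 of 6 genes were called, against 51.8% of all probe sets. LHY was higher at 48 h than at 3 h by 2.57 ± 0.07 and CCA1 by 1.67 ± 0.05, while PRR5 was lower by -1.20 ± 0.05, PRR7 by -0.60 ± 0.04 and TOC1 by -0.40 ± 0.05, and GI was at 0.07 ± 0.05 (adjusted p = 0.259). By the labels of the 3 h arrays, the means of TOC1 and GI join opposite changes. In rdm4, where all 6 genes were called against 51.3% of all probe sets, TOC1 was lower at 48 h than at 3 h by -1.29 ± 0.07 and GI by -0.53 ± 0.07. In WT, where 5 were called against 45.3%, TOC1 was higher by 0.50 ± 0.07 and GI by 0.67 ± 0.07, and PRR7 was at -0.10 ± 0.06 (adjusted p = 0.233). Pairs of groups that differ in both genotype and time were used only to order the levels of a gene, and there 34.5%, 43.5%, 45.9%, 49.2% or 55.6% of all probe sets were called.

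**Figure D4:**
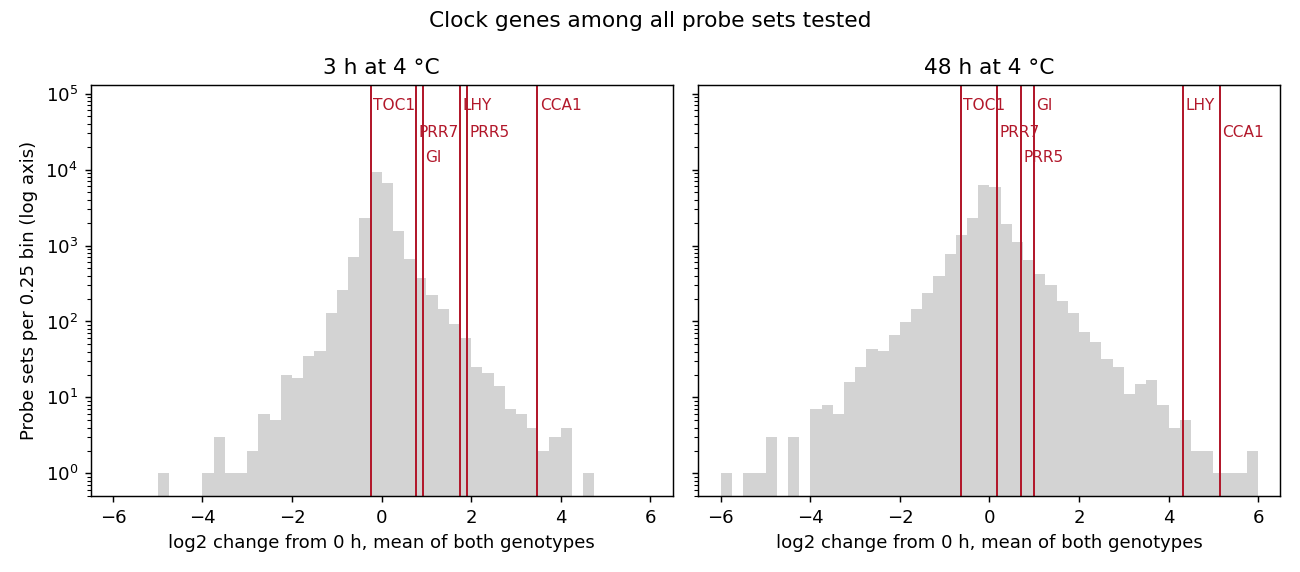
Number of probe sets (y axis, log scale) by log2 change from 0 h in the mean of both genotypes (x axis, bins of 0.25) after 3 h (left) and 48 h (right), with a line for each clock gene. CCA1 stands at 3.48 and 5.15 and LHY at 1.75 and 4.32 in the right tail, while PRR7 stands at 0.77 and 0.17.

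Among the 6 genes, CCA1 and LHY had the most similar patterns over the 12 arrays, with Pearson r = 0.90, followed by CCA1 and GI at 0.86 and PRR7 and PRR5 at 0.81. TOC1 and LHY were the most opposed, at -0.64, and TOC1 was at -0.39 with CCA1. The correlations of PRR7 with LHY and of PRR5 with TOC1 were -0.03 and -0.04. These values describe 12 arrays that form 6 groups of replicates and share their normalization.

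**Figure D5:**
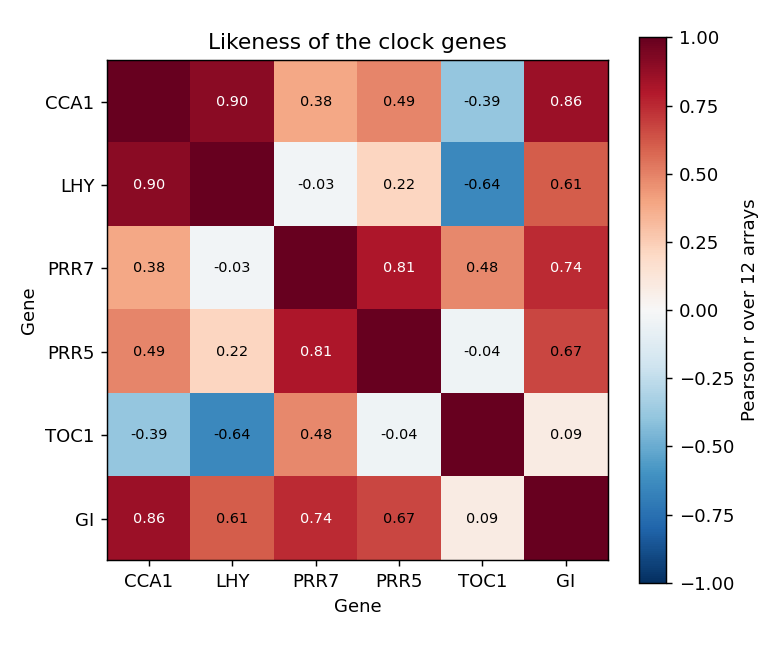
Pearson correlation of log2 signal over the 12 arrays for each pair of clock genes (rows and columns are genes, colour and number give r). CCA1 and LHY share the highest value, 0.90, and LHY and TOC1 the lowest, -0.64.

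For each clock gene the named probe sets with the most similar pattern were found by Pearson r over the same 12 arrays, among 1880 named probe sets whose 6 group means had an SD of 0.5 or more. AT2G44670, AT5G01790 and AT3G57020 were closest to CCA1, with r of 0.989 to 0.992. AT2G44670 averaged 9.03 in rdm4 and 9.30 in WT at 0 h, 10.02 in rdm4 and 9.99 in WT at 3 h, and 10.54 in rdm4 and 10.43 in WT at 48 h. AT5G19850, AT1G22410 and AT5G50100 were closest to LHY, with r of 0.987 to 0.996, and AT5G19850, like LHY, averaged less at 3 h in rdm4 (8.94) than in WT (9.39). WRKY42, a WRKY transcription factor gene, AT4G23040 and CHI were closest to PRR7, with r of 0.964 to 0.976. WRKY42 averaged 6.07 in rdm4 and 4.62 in WT at 3 h and at most 4.21 in the other groups. The tetraspanin gene TET3, AT1G53035 and AT4G16610 were closest to PRR5, with r of 0.963 to 0.976. AT3G53310, AT4G19830 and AT5G38520 were closest to TOC1, with r of 0.950 to 0.989, and AT4G32190, AT2G47890 and AT3G11580 to GI, with r of 0.976 to 0.984.

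Of 75 further clock, light input and output genes listed for this comparison, the platform's gene table names 5, so they are a small sample. COR27, a cold-induced protein that represses clock genes, had log2 signals of 10.58 and 10.70 in rdm4, against 10.95 and 10.99 in WT, at 0 h. At 3 h they were 12.05 and 11.95 in rdm4, against 10.90 and 10.96 in WT, and at 48 h 10.60 and 10.65 in rdm4, against 10.75 and 10.74 in WT. By the labels of the 3 h arrays, COR27 rose at 3 h in rdm4, by 1.36 ± 0.07 (adjusted p = 1.07e-08). In WT its change was -0.04 ± 0.07 (adjusted p = 0.673). With these labels exchanged the larger rise would be in WT. In the mean of both genotypes COR27 rose by 0.66 ± 0.05 at 3 h (adjusted p = 2.40e-07). HYH, a light-signalling bZIP factor related to HY5, rose in both genotypes, by 6.31 ± 0.10 in rdm4 and 4.42 ± 0.10 in WT at 48 h, from a 0 h level at or above only 19.0% and 37.7% of the probe sets. TIC, a nuclear regulator of the clock around dawn, was higher at 3 h in the arrays labelled rdm4 by 0.39 ± 0.09 (adjusted p = 0.00295). With the 3 h labels exchanged it would be lower in rdm4. Its genotype difference was called at neither other time. FIO1, an RNA methyltransferase that affects the length of the clock's period, fell by 0.31 ± 0.06 by 48 h, averaged over both genotypes (adjusted p = 3.26e-04). XCT, which also affects the period, rose by 0.24 ± 0.06 there (adjusted p = 0.00289). In that 48 h comparison 2 of the 5 were called higher and 2 lower, against 27.4% and 30.3% of all probe sets, with a median change of -0.03, against -0.01 over all probe sets.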

How the data were processed

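The authors deposited 1 value table of log2 signals for 22810 ATH1 probe sets on 12 arrays, with the scale read from the range of the values. The steps that made these values are not given in the sources used here. Deposited log2 values were used as deposited. After 64 control probe sets were left out, 22746 were fitted with limma 3.58.1 in R 4.3.3 (lmFit and eBayes, 6 group means over 12 arrays), with degrees of freedom of 6 (residual) and 5.97 (prior). Benjamini-Hochberg adjustment ran over all probe sets of a comparison, and a call is an adjusted p under 0.05. The number of arrays limits the precision. The platform table gives 1 gene for 13513 probe sets and several for 503.

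The 6 genes and the lists were chosen with earlier results of these data known. The genes named as most like a clock gene are the 3 with the highest r. Replicates were separate samples from different growth chambers. The p-values rest on the spread between replicates, pooled over the 6 groups and moderated across probe sets, and not on that of the compared groups alone. The fit was tested on simulated data. Alternatives were repeated quantile normalization, median centring, leaving out dim probe sets, trended and robust eBayes, fits of the compared arrays or without the 3 h arrays, a replicate block, a 2-fold minimum, leaving out each array and, chosen after seeing the data, exchanging the genotype labels of the 3 h arrays.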

Additional observations from a re-analysis of the deposited data

Results flagged for a closer look

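Tests of the difference between the genotypes' responses to chilling picked out the following results, given as the rdm4 response minus the WT response on the log2 scale. At 3 h the differences were 1.95 for CCA1, 1.73 for TOC1, 1.17 for GI, 1.11 for PRR7 and -1.17 for LHY. Among the other clock genes they were 1.40 for COR27, 1.00 for HYH, 0.56 for TIC, 0.44 for FIO1 and -0.31 for XCT (limma adjusted p = 0.0470 for XCT and 0.00636 or below for the others). At 48 h they were 1.32 for CCA1, -0.71 for PRR5 and 1.89 for HYH. The 3 h values depend on the genotype labels of the 3 h arrays, and the 48 h values do not. With those labels exchanged the 3 h differences would be 0.74 for CCA1, -0.81 for TOC1, -0.72 for GI, -0.64 for PRR7 and 1.15 for LHY.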

How the results depend on the processing

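For the 6 clock genes in 12 comparisons, all 72 values kept their direction and their side of the threshold after median centring, without the dimmest 30% of probe sets and with a replicate block. With the replicate block the number of probe sets called, rdm4 against WT at 0 h, was 6797 in place of 6787, and the number of clock genes called changed in no comparison. The replicate numbers marked no pattern common to all groups: of 15 correlations of replicate differences between groups 4 were over 0.1 and 3 under -0.1. They ran from -0.15 to 0.27, the highest between rdm4 at 0 h and rdm4 at 48 h. All 3 under -0.1 were with WT at 0 h. Every correlation with WT at 0 h was negative, from -0.15 to -0.03, and every one among the other groups was positive, from 0.01 to 0.27. The replicate numbers thus followed a shared direction in the other groups that was reversed in WT at 0 h. The replicate block fits a shift common to all groups, so it cannot take up a reversed one. The LHY difference at 0 h, which was not called, turned to -0.035 after repeated quantile normalization and ran from -0.15 to 0.17 over left-out arrays. Over left-out arrays the uncalled differences of the 48 h responses ran from -0.089 to 0.022 for GI and from -0.16 to 0.030 for TOC1. The count of clock genes called between rdm4 and WT was 3 in place of 5 with the 0 h arrays alone, and 1 to 3 at 48 h over left-out arrays.

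With the genotype labels of the 3 h arrays exchanged, an alternative chosen after seeing the data, the rdm4 minus WT differences at 3 h are by construction -0.61 for CCA1, 1.16 for LHY, -0.87 for PRR7, -0.52 for PRR5, -1.27 for TOC1 and -0.95 for GI. TOC1 then changed by -0.65 in rdm4 and 0.16 in WT at 3 h. The differences of the 3 h responses turned to 1.15 for LHY, -0.64 for PRR7, -0.81 for TOC1 and -0.72 for GI. There 2616 probe sets were called, a count that restates the correlation of -0.61 between the 0 h and 3 h genotype differences.

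With a minimum of 2-fold, fewer were called by construction. Between rdm4 and WT 1, 2 and 0 clock genes were called at 0, 3 and 48 h, with 434, 599 and 729 probe sets in all. At 3 h it was 3 genes and 875 probe sets in the mean, 5 genes and 1182 probe sets in rdm4, and 4 genes and 1589 probe sets in WT. At 48 h it was 2 genes and 2399 probe sets in the mean, 2 genes and 2698 probe sets in rdm4, and 4 genes and 2533 probe sets in WT. For 48 h against 3 h it was 3 genes and 1495 probe sets. For the differences of the responses it was 5 genes and 2162 probe sets at 3 h, and 1 gene and 922 probe sets at 48 h. Signal over background was not measured, which limits the sizes of changes from the low 0 h levels of CCA1 and LHY.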

Other observations

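The named probe sets with patterns most opposed to the clock genes over the 12 arrays were AT1G26580 for CCA1 (r = -0.99), Fes1B for LHY (-0.99), AT1G47400 for PRR7 (-0.95), AT1G60590 for PRR5 (-0.98), IRX15-L for TOC1 (-0.97) and AT3G46540 for GI (-0.98). Fes1B averaged 9.45 in rdm4 and 9.49 in WT at 0 h, 8.73 in rdm4 and 8.18 in WT at 3 h, and 6.57 in rdm4 and 5.98 in WT at 48 h. IRX15-L, which acts in xylan synthesis for the cell wall, averaged 5.73 in rdm4 and 5.04 in WT at 0 h, 5.18 in rdm4 and 6.29 in WT at 3 h, and 6.38 in rdm4 and 5.94 in WT at 48 h.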
